A study of Mus musculus with 8 samples.

Results

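The genes described here are the receptors for fibroblast growth factor (FGF) and epidermal growth factor (EGF) and the genes that their signal induces or that restrain it. They were chosen by symbol on the array: the Dusp phosphatases, the Sprouty and Spred inhibitors, the ETS factors Etv1, Etv4 and Etv5, the receptors Fgfr1, Fgfr2, Fgfr4 and Egfr, the Fos, Jun and Egr families, and genes with an Ier symbol. That gave 51 genes with 77 probes, of 16593 genes with 23978 probes. Erbb2, Erbb3, Erbb4, Fosl2 and Dusp5 were not analysed here. The study set neural stem cells (NSCs), made from embryonic stem cells of C57BL/6 mice and grown in Euromed-N medium with N2, FGF2 and EGF, beside the neurons they give rise to, 5 samples against 3. The neurons had 4 days in the serum-free medium N2B27, then Neurobasal with B27 after replating, and were purified by flow cytometry for the red fluorescent protein RedStar, expressed from the promoter of Tau (Mapt). NSCs were negative for Tau-RedStar by their labels. The sorted cells are therefore those in which that promoter was active, and the labels give no clone, culture or passage. Because medium, growth factors and sorting follow the group, their effects cannot be told apart from that of cell type.

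FGF and EGF bind receptor tyrosine kinases, which act through adaptors on Ras and then on the kinases Raf, MEK and ERK. Active ERK induces immediate early genes such as Fos and Egr1 within minutes and, later, its own inhibitors: Sprouty and Spred proteins act upstream of ERK, and the phosphatases Dusp4 and Dusp6 remove its activating phosphates. Etv4 and Etv5 are ETS transcription factors long used as readouts of FGF signalling, and neural stem cells in culture depend on FGF2 and EGF for division.

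Expression was read on Illumina bead arrays. Values are log2 intensities after background correction and quantile normalisation, and a difference is neuron minus NSC, so that 1 is a doubling. A gene was tested if a probe was above background on at least 3 of the 8 arrays, and its brightest tested probe stands for it. A fold written as at least N-fold is a bound on these background-corrected values, and other processing can give smaller folds. The arrays had median signals of 80.3 to 84.7 and saw 36.5% to 39.7% of probes above background. Of 12 NSC and radial glia markers with a probe, 10 were above background on every NSC array, while Pax6 and Prom1 were on no array. In neurons 9 of the 12 were still above background on every array. Of the 10 tested, 6 were lower, among them Tnc (-3.59), Vim (-0.59) and Cd44, which was above background on no neuron array. Sox2 (0.37) and Olig2 (0.85) were higher, and Nes (-0.16) was not called. Of 16 neuronal markers 9 were above background on every neuron array, with Mapt at least 17.1-fold and Dcx at least 13.7-fold higher than in NSCs, but Tubb3, Elavl3, Elavl4, Stmn2, Snap25, Nefl and Nefm were on none. The summed intensity of 8 markers of dividing cells was 9480 to 10200 in NSCs and 392 to 477 in neurons, and all 7 of them that were tested were lower. That of 12 oligodendrocyte lineage markers was 618 to 710 in NSCs and 1500 to 1670 in neurons: 5 of the 7 tested were higher, Pdgfra at least 4.04-fold and Gpr17 at least 8.25-fold, and Mbp, Mog and Mag were above background on no array. Astrocyte markers summed to 4920 to 5670 in NSCs and 915 to 1010 in neurons. Of the microglia and of the endothelial markers, 1 gene each was above background on any array. Of the tested markers, 4 of 7 of dividing cells passed the filter through NSCs alone, as did 2 of 5 of astrocytes and 1 of 10 of NSCs. Through neurons alone passed 7 of 9 neuronal and 4 of 7 oligodendrocyte lineage markers. For all of these the direction was fixed by the filter. The part of the marker differences in the results below was not tested.

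Of the 51 genes 30 were tested, 10 were higher in neurons and 11 lower by limma at an adjusted p below 0.05, and 9 were not called. Over all 7407 tested genes 64.6% were called, 35.4% higher and 29.2% lower, so the count called, 21 of 30, is near the background. The median difference, -0.04, also lay beside that of all genes, 0.06. The largest fitted rises were those of Dusp8 and Egr2 and the largest fitted falls those of Ier3, Etv4, Etv5, Spry4 and Dusp6. For 20 of the 30 genes the 2 groups of arrays were fully apart, as they were for 61.1% of all genes. Ier3, Dusp4 and Spred2 passed the filter through NSCs alone and Egr2 through neurons alone, so for these the direction was fixed by the filter. Dusp8, Dusp2 and Dusp23, each above background on 1 NSC array, passed only with the neuron arrays, so the filter favoured a rise. Spry4, above background on 2 neuron arrays, passed only with the NSC arrays, so the filter favoured a fall.

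**Figure D1:**
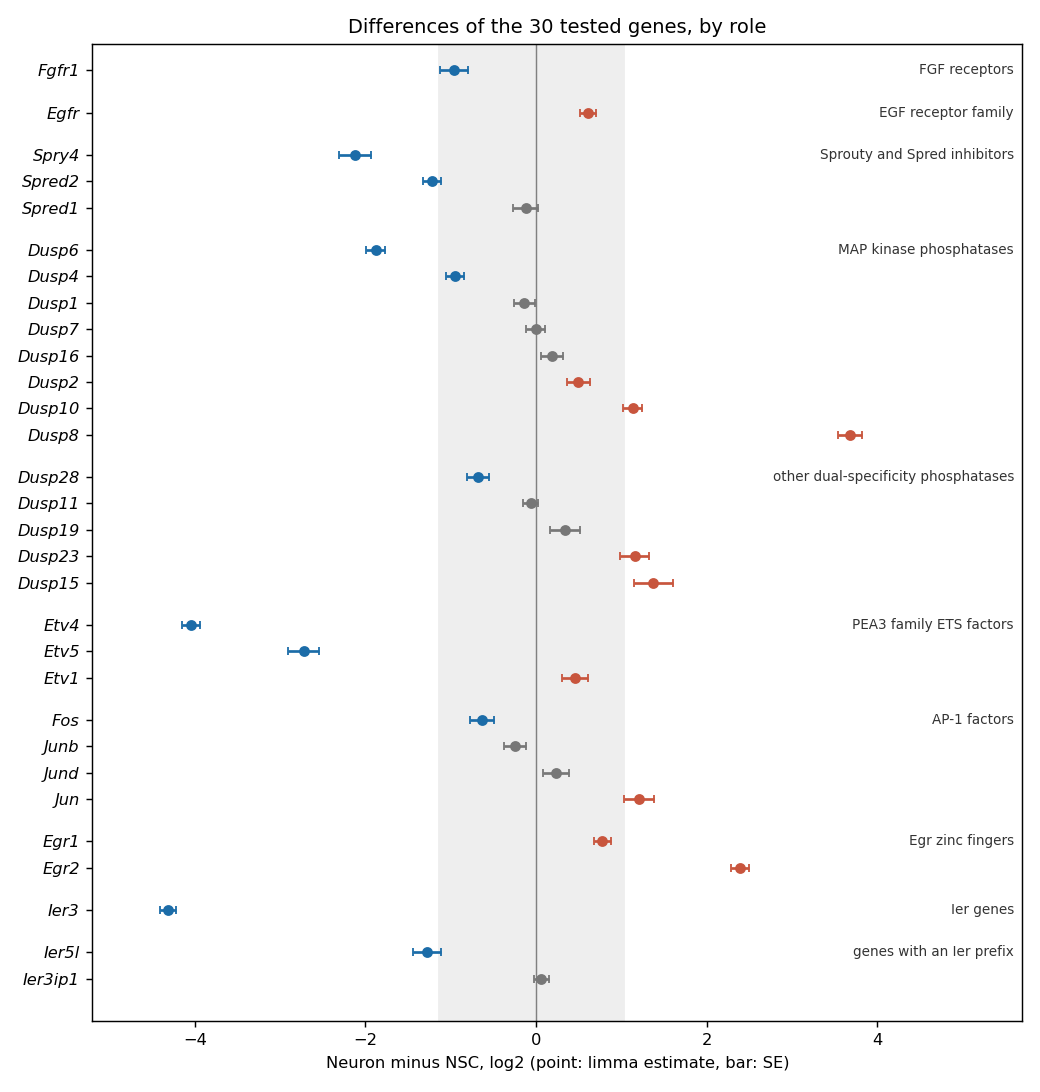
Difference between neurons and NSCs (log2) of the 30 tested genes, grouped by role; points are limma estimates, bars their SE, red higher, blue lower and grey not called at an adjusted p below 0.05. The grey band spans the 10th to the 90th percentile of all tested genes (-1.13 to 1.03). Etv4 and Ier3 lie below -4, and Dusp8 is highest at 3.68.

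Of the chosen FGF receptors Fgfr1 alone was above background, and it fell, while Fgfr3, which the choice by symbol did not cover, was higher. Fgfr1, the main FGF2 receptor of neural stem cells, read 6.08, 5.86, 6.48, 6.63 and 6.30 on the NSC arrays and 5.41, 5.33 and 5.19 on the neuron arrays. All neuron arrays lay below all NSC arrays, with a difference of -0.96 (SE 0.16, limma adjusted p = 0.000375). Without background correction the difference was -0.47, still called. A second Fgfr1 probe, the 3 probes of Fgfr2 and the probe of Fgfr4 were above background on no array. Fgfr3, another FGF receptor, rose from 5.65 ± 0.24 (SD, n = 5) to 6.48 ± 0.26 (n = 3), a difference of 0.82 (limma adjusted p = 0.000798), and its groups did not overlap; without background correction it was at 0.44. In bulk RNA, fewer cells that express a gene and less RNA per cell cannot be told apart.

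Egfr, the EGF receptor, gave opposite answers on different probes. Its brightest probe read 11.52, 11.33, 11.61, 11.47 and 11.42 on the NSC arrays and 12.01, 12.09 and 12.14 on the neuron arrays. It was higher in every neuron sample, by 0.61 (SE 0.10, limma adjusted p = 0.000223). The second probe read 9.75, 9.62, 9.83, 9.66 and 10.02 on the NSC arrays and 9.03, 9.10 and 9.27 on the neuron arrays, and the third 8.47, 8.57, 8.60, 8.56 and 8.48 on the NSC arrays and 7.40, 7.21 and 7.54 on the neuron arrays. Both were lower in every neuron sample, with differences of -0.64 (SE 0.12, limma adjusted p = 0.000524) and -1.16 (SE 0.10, limma adjusted p = 1.80e-06). The dimmest probe, with 6.11 ± 0.19 in NSCs (SD, n = 5) and 6.52 ± 0.40 in neurons (n = 3), was not called at 0.41 (SE 0.17, limma adjusted p = 0.0605). In the platform's annotation the brightest and the dimmest probe belong to 1 RefSeq transcript of Egfr and the other two to a second one, so the probes split by transcript. The mean of the 4 probes was -0.20 and not called (limma adjusted p = 0.0618), so no single direction can be given for the gene, which stands among the 10 higher genes by its brightest probe.

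**Figure D2:**
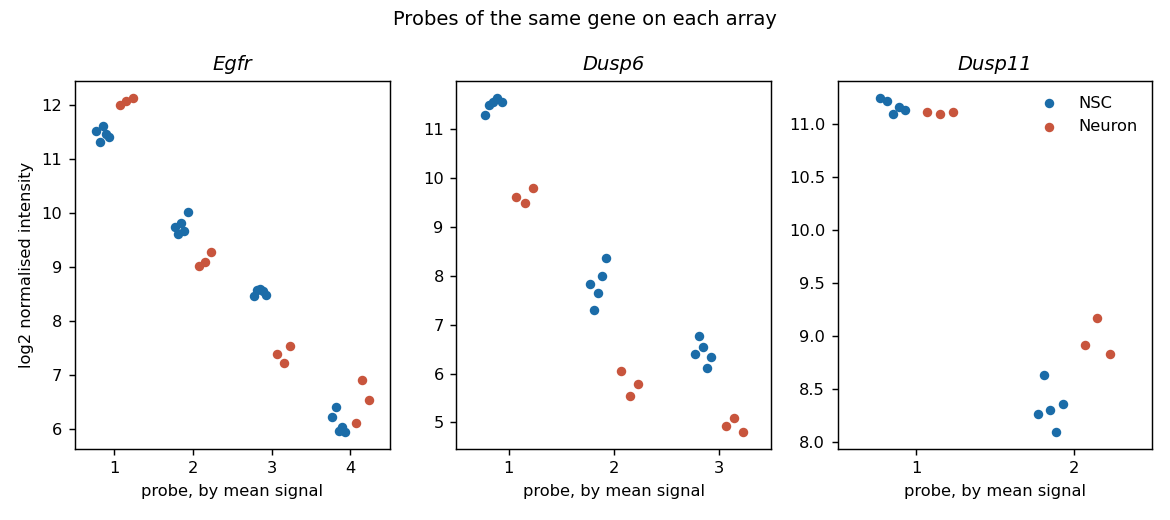
Log2 normalised intensity of every tested probe of Egfr, Dusp6 and Dusp11 on each of 5 NSC arrays (blue) and 3 neuron arrays (red), with probes ordered by mean signal and a separate axis for each gene. Egfr rises on probe 1 and falls on probes 2 and 3, Dusp6 falls on all 3 probes, and Dusp11 is higher on probe 2 and not called on probe 1.

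Of the Sprouty and Spred inhibitors, 2 of 3 tested genes fell, and 4 of the 7 were above background on no array. Spry4, which blocks the route from the receptor to Ras, read 7.41, 7.48, 7.24, 7.46 and 7.80 on the NSC arrays and 4.94, 5.82 and 5.31 on the neuron arrays. The neuron arrays were all below the NSC arrays, and the first of them was not above background. The difference was -2.12 (SE 0.18, limma adjusted p = 1.91e-06), or -1.25 without background correction. Spred2, a membrane protein that keeps Ras from activating Raf, read 5.85, 6.17, 5.92, 6.00 and 5.94 on the NSC arrays and 4.94, 4.63 and 4.70 on the neuron arrays. No neuron array was above background, so Spred2 was at least 1.82-fold lower (fitted difference -1.22, SE 0.11, limma adjusted p = 2.65e-06; -0.54 without background correction). Its relative Spred1 was bright in both groups, with 9.61 ± 0.24 in NSCs (SD, n = 5) and 9.49 ± 0.19 in neurons (n = 3). Their arrays overlapped, and Spred1 was not called at -0.12 (SE 0.15, limma adjusted p = 0.487). Spry1, Spry2, Spry3 and Spred3 were those above background on no array.

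The phosphatases of MAP kinases divided. Dusp6, which acts in the cytoplasm on ERK, fell on all of its 3 probes, and Dusp4, a nuclear phosphatase of ERK, fell as well. Dusp8 and Dusp10, which act mainly on the kinases JNK and p38, rose. The direction did not follow the target kinase throughout. Dusp2, which acts on ERK and p38, rose, while Dusp7, which acts on ERK, and Dusp16, which acts on JNK, were not called. The filter fixed the direction of Dusp4 and favoured a rise of Dusp8 and Dusp2. In all, 8 of 9 such genes with a probe were tested: 3 rose, 2 fell and 3 were not called. That is 37.5% higher and 25% lower, near the 35.4% and 29.2% of all genes.

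Dusp6 read 11.30, 11.50, 11.57, 11.65 and 11.55 on the NSC arrays and 9.61, 9.50 and 9.79 on the neuron arrays on its brightest probe. No neuron array came within 1 unit of any NSC array, and the difference was -1.88 (SE 0.11, limma adjusted p = 7.19e-08). On the other two probes it was -2.04 (SE 0.21, limma adjusted p = 7.17e-06) and -1.49 (SE 0.14, limma adjusted p = 4.65e-06). Dusp4 read 5.71, 5.95, 5.87, 5.86 and 5.97 on the NSC arrays and 4.87, 4.79 and 5.11 on the neuron arrays. It was at least 1.69-fold lower in neurons, where no array was above background (fitted difference -0.95, SE 0.11, limma adjusted p = 1.57e-05; -0.41 without background correction). Its other probes never rose above background.

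Dusp8 was the largest rise among the 30 genes. It read 4.80, 4.57, 4.93, 5.27 and 4.84 on the NSC arrays and 8.60, 8.48 and 8.59 on the neuron arrays. Only the fourth NSC array was above background, and every neuron array lay over 3 units above the highest of the NSC arrays. The difference was 3.68 (SE 0.14, limma adjusted p = 2.00e-09), and 2.33 without background correction. Dusp10 read 7.10, 7.00, 7.24, 6.97 and 6.98 on the NSC arrays and 8.14, 8.07 and 8.35 on the neuron arrays. The groups did not overlap, and the difference was 1.13 (SE 0.11, limma adjusted p = 3.74e-06). A second, dimmer Dusp10 probe rose by 1.32 (SE 0.26, limma adjusted p = 0.000948). Dusp2, a nuclear phosphatase of immune cells that acts on ERK and p38, was dim, with 4.92 ± 0.24 in NSCs (SD, n = 5) and 5.42 ± 0.05 in neurons (n = 3). It was above background on 1 NSC array and on all neuron arrays, and was higher by 0.50 (SE 0.14, limma adjusted p = 0.00788), or 0.21 without background correction.

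The others were not called. Dusp1, an immediate early gene whose product acts on JNK, p38 and ERK in the nucleus, had 8.88 ± 0.15 in NSCs (SD, n = 5) and 8.74 ± 0.21 in neurons (n = 3), a difference of -0.14 (SE 0.12, limma adjusted p = 0.359). Dusp7, a close relative of Dusp6 that also acts on ERK in the cytoplasm, had 8.43 ± 0.14 in NSCs (SD, n = 5) and 8.42 ± 0.10 in neurons (n = 3), a difference of -0.01 (SE 0.11, limma adjusted p = 0.964). Dusp16, a further phosphatase of JNK, was not called on its brightest probe at 0.19 (SE 0.13, limma adjusted p = 0.216) or on the second at 0.27. For each of these genes the groups overlapped. Dusp9 was above background on no array.

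The promoters of Dusp8 and Dusp1 are shown because both hold the cyclic AMP response element (CRE, TGACGTCA, read on both strands), yet Dusp8 rose and Dusp1 was not called. Each is the stretch of 250 bases before the start of the gene in RefSeq on GRCm38.p6, written 5′ to 3′ on the gene's strand, with the CRE in capitals. Dusp8 lies at chr7:142095285-142095534 on the minus strand and Dusp1 at chr17:26508473-26508722 on the minus strand.
Dusp8: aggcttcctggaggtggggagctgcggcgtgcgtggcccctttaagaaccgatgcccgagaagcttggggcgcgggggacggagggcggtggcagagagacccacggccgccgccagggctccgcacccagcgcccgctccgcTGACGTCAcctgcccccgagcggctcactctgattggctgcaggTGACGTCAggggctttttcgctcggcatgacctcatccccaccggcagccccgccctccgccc
Dusp1: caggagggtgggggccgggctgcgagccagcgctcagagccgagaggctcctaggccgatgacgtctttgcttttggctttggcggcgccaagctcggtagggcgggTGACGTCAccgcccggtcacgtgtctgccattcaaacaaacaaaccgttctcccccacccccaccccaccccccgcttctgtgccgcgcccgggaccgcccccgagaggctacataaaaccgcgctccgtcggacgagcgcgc
Dusp8 holds 2 copies, which begin 107 and 63 bases before the start, and Dusp1 holds 1, which begins 143 bases before it. A CRE is present in 1.55% of 32851 such windows over all genes. Among the 36 chosen genes whose windows were used here, it was found in these 2 alone. The match is a description of the letters and shows no binding.

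Of the other dual-specificity phosphatases, most of which are small enzymes without the MAP kinase binding domain, 5 of 13 were tested, 2 rose, 1 fell and 2 were not called. Dusp15, a myristoylated phosphatase tied to oligodendrocyte differentiation in rodents, read 5.62, 5.51, 5.01, 5.47 and 4.65 on the NSC arrays and 6.24, 6.92 and 6.71 on the neuron arrays. The groups did not overlap, 2 of the NSC arrays were not above background, and the difference was 1.37 (SE 0.23, limma adjusted p = 0.000311). The oligodendrocyte lineage markers given above moved the same way, and their part in it was not tested. Dusp23 read 5.07, 5.23, 5.22, 5.17 and 4.95 on the NSC arrays and 6.73, 6.30 and 5.83 on the neuron arrays. It was above background on 1 NSC array, and every neuron array was higher, by 1.16 (SE 0.17, limma adjusted p = 0.000126). Without background correction these differences were 0.71 and 0.56. Dusp28, with 7.27 ± 0.11 in NSCs (SD, n = 5) and 6.59 ± 0.28 in neurons (n = 3), was lower, with a difference of -0.68 (SE 0.13, limma adjusted p = 0.000861). Dusp19, with 7.13 ± 0.34 in NSCs (SD, n = 5) and 7.48 ± 0.11 in neurons (n = 3), was not called at 0.34 (SE 0.18, limma adjusted p = 0.112). Dusp11, a phosphatase of RNA, was not called on its brighter probe, at -0.06 (SE 0.09, limma adjusted p = 0.540), and higher on its dimmer one, by 0.64 (SE 0.13, limma adjusted p = 0.00141). The mean of both probes was called, at 0.29 (limma adjusted p = 0.0174), so whether Dusp11 counts as higher depends on the probe.

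The ETS factors Etv4 and Etv5 fell steeply, and their relative Etv1 was slightly higher. Etv4 read 9.75, 9.72, 9.93, 9.76 and 9.73 on the NSC arrays and 5.92, 5.58 and 5.69 on the neuron arrays. It was still above background on every neuron array, over 3 units below the lowest NSC array, with a difference of -4.05 (SE 0.11, limma adjusted p = 1.11e-10). Etv5 read 9.38, 9.84, 9.42, 10.08 and 9.93 on the NSC arrays and 7.05, 7.25 and 6.72 on the neuron arrays. Here too the groups did not overlap, and the difference was -2.72 (SE 0.18, limma adjusted p = 2.06e-07). Etv1 read 8.78, 8.94, 8.90, 8.74 and 8.86 on the NSC arrays and 9.67, 9.33 and 8.89 on the neuron arrays. The third neuron array lay within the range of the NSCs, and the first was the highest of all. The difference was 0.45 (SE 0.15, limma adjusted p = 0.0222) on this probe and 0.43 (SE 0.16, limma adjusted p = 0.0380) on the second. The Etv1 call was lost without the first neuron sample (0.27, limma adjusted p = 0.116) or without the second (0.44, limma adjusted p = 0.0646).

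**Figure D3:**
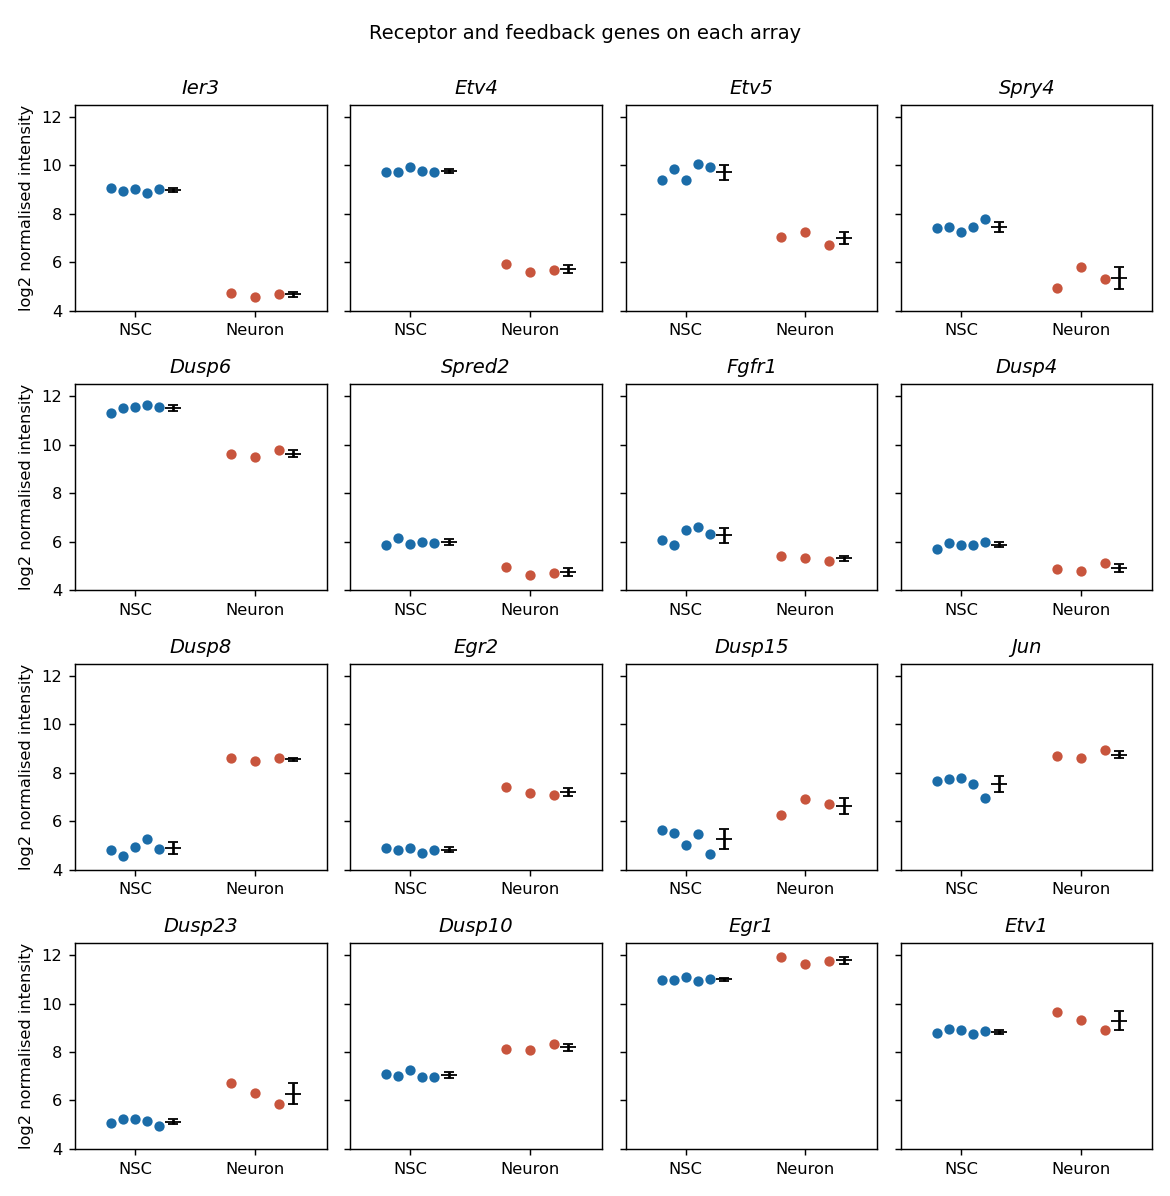
Log2 normalised intensity of 16 called genes on each of 5 NSC arrays (blue) and 3 neuron arrays (red); the bar beside the points is the mean ± SD. The 8 genes in the upper panels are lower in every neuron sample, the 8 in the lower panels have a higher mean in neurons, and of the 16 only Etv1 has groups that overlap.

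The immediate early genes of the AP-1 family went different ways. AP-1 is a pair of a Fos and a Jun protein. Jun read 7.64, 7.75, 7.79, 7.54 and 6.97 on the NSC arrays and 8.69, 8.63 and 8.93 on the neuron arrays. It was higher in every neuron sample, by 1.21 (SE 0.18, limma adjusted p = 0.000117), and the fifth NSC sample was its lowest. Fos read 7.22, 7.35, 7.12, 7.53 and 7.10 on the NSC arrays and 6.91, 6.46 and 6.52 on the neuron arrays. It was lower in every neuron sample, with a difference of -0.64 (SE 0.14, limma adjusted p = 0.00190). Junb, with 6.26 ± 0.22 in NSCs (SD, n = 5) and 6.02 ± 0.06 in neurons (n = 3), was not called at -0.25 (SE 0.13, limma adjusted p = 0.113). Without the second NSC sample, the lowest of its group, Junb was called at -0.34 (limma adjusted p = 0.0103). Jund, with 5.57 ± 0.28 in NSCs (SD, n = 5) and 5.80 ± 0.11 in neurons (n = 3), was not called at 0.23 (SE 0.15, limma adjusted p = 0.215). Fosb and Fosl1 were above background on no array.

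The Egr zinc finger factors are induced by activity in neurons and by growth factors in many cells. The 2 tested of 4, Egr1 and Egr2, were higher, though the filter fixed the direction of Egr2. Egr1 was bright in both groups and read 10.99, 10.97, 11.12, 10.93 and 11.02 on the NSC arrays and 11.92, 11.65 and 11.78 on the neuron arrays. It was higher in every neuron sample, by 0.78 (SE 0.10, limma adjusted p = 3.59e-05). Egr2 read 4.91, 4.81, 4.90, 4.68 and 4.80 on the NSC arrays and 7.41, 7.15 and 7.06 on the neuron arrays. It was above background on every neuron array and no NSC array, and at least 4.03-fold higher in neurons (fitted difference 2.39, SE 0.11, limma adjusted p = 8.07e-09; 1.27 without background correction). Egr4 was above background on the first and second neuron arrays and on no NSC array, too few for the test, and Egr3 on none.

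A promoter of Egr2 is shown because Egr2 was the only gene of those 36 to hold a CArG box. This is the site of the serum response factor SRF, through which growth factors and activity induce early genes. Egr1, Etv4 and Spry4 were not among the 36, so their promoters were not searched. For the 36, a box farther upstream than the windows would have been missed. The window is chr10:67537619-67537868 on the plus strand of GRCm38.p6, from RefSeq, with the box in capitals.
Egr2: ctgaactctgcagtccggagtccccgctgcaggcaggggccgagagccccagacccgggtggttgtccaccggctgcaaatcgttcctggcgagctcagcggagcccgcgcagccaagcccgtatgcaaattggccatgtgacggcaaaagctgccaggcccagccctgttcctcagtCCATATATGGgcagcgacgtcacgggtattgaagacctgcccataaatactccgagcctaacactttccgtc
The box begins 72 bases before this start. RefSeq gives Egr2 further starts, and the windows of all but 1 of them hold a CArG box. In the windows that overlap the one shown it is the same box, and in chr10:67537316-67537565 it is a different one. Over all genes 1.47% of windows hold one. The windows of Ier3, Dusp6 and Etv5, which fell, hold no CArG box, no CRE, no AP-1 motif (TGANTCA with C or G as N, in 4.46% of windows) and no ETS motif (CCGGAAG, in 6.91%). Among those 36 genes, an ETS motif was found in none of the 7 lower genes and in 1 of the 8 higher genes, Egfr.

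Ier3 fell steeply, to background. Its product is an early response protein that ERK phosphorylates and that affects cell survival. Ier3 read 9.08, 8.94, 9.03, 8.88 and 9.03 on the NSC arrays and 4.75, 4.58 and 4.69 on the neuron arrays. The raw signals were 493.9 to 568.0 in NSCs and 79.9 to 83.2 in neurons, and no neuron array was above background. On the background-corrected values only a bound can be given for its fall: Ier3 was at least 14.7-fold lower in neurons (fitted difference -4.32, SE 0.09, limma adjusted p = 3.20e-11). Without background correction the difference was smaller than that bound, at -2.80, where Etv4 was at -3.07. Ier2 and Ier5, also early response genes, were above background on no array. Ier5l, a relative of Ier5, read 8.03, 8.59, 8.12, 8.06 and 7.99 on the NSC arrays and 6.55, 7.06 and 7.03 on the neuron arrays, and was lower in every neuron sample, with a difference of -1.28 (SE 0.16, limma adjusted p = 4.29e-05). Ier3ip1, which shares the prefix but encodes a small protein of the endoplasmic reticulum, had 9.88 ± 0.08 in NSCs (SD, n = 5) and 9.94 ± 0.04 in neurons (n = 3), and was not called at 0.06 (SE 0.09, limma adjusted p = 0.581).

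In all, 19 of the 51 genes were above background on no array. Their 26 probes lay between 4.21 and 5.17 on the log2 scale, while the dimmest probes above background read 5.05 to 5.27, depending on the array. Besides those named above they were Dusp3, Dusp12, Dusp13, Dusp14, Dusp18, Dusp21 and Dusp26. Dusp22 was above background on 1 NSC array by one probe and on 2 neuron arrays by the other, and was not tested. A probe at this level may fail to see its transcript, so none of these genes can be called absent.

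The other genes of the pathway were set beside these from 6 lists of 138 genes with a probe. Of the 74 tested, 36 were higher and 24 lower, which is 48.6% and 32.4%, set beside 35.4% and 29.2% of all genes. Their median difference was 0.19. The lists were not tested as sets and are described by their counts. Of the 74, 5 passed the filter through NSCs alone and 2 through neurons alone, so their direction was fixed by the filter. Among the genes named below, Fgf22, Elk3, Klf2 and Mapk12 were each above background on 1 neuron array. They passed only with the NSC arrays, so the filter favoured a fall.

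Of 28 listed genes of the FGF and EGF growth factor families 6 were tested, with 1 higher, 2 lower and 3 not called. Fgf1 fell from 9.69 ± 0.13 (SD, n = 5) to 7.66 ± 0.29 (n = 3), a difference of -2.02 (limma adjusted p = 2.33e-07), and Fgf22 fell at -1.81 (-0.92 without background correction). Fgf17 was at least 1.93-fold higher in neurons and above background on no NSC array. Fgf2 was above background on no array, and the FGF2 and EGF in the NSC medium are not read by the arrays. Of the 16 tested genes that regulate the receptors or bind their ligands, 9 rose and 5 fell. The perlecan gene Hspg2, a matrix proteoglycan that holds FGFs, was at least 16.3-fold lower and the syndecan gene Sdc4 at least 3.12-fold lower. Fgfrl1, an FGF receptor without the kinase domain, fell from 10.26 ± 0.03 (SD, n = 5) to 8.14 ± 0.09 (n = 3), a difference of -2.12 (limma adjusted p = 3.64e-09). Flrt2 and Flrt3, membrane proteins that bind FGF receptors, rose by 1.81 and 1.76, and the secreted FGF carrier Fgfbp3 by 1.46.

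Of 10 tested adaptors and Ras regulators 5 rose and 3 fell. The adaptor Shc1 fell from 11.00 ± 0.05 (SD, n = 5) to 9.26 ± 0.11 (n = 3), a difference of -1.74 (limma adjusted p = 2.90e-08), the Ras relative Rras was at -0.93, and the adaptor Shc3 was at least 1.56-fold lower. Rasa2, which switches Ras off, rose by 1.12, the docking protein Gab1 by 0.84 and Mras by 0.47. Leaving out the first or the third neuron sample ended the Mras call (limma adjusted p = 0.0852 and 0.0506). Of 13 tested genes of the Raf, MEK and ERK step and its nuclear targets, 6 rose and 4 fell. The MEK genes Map2k2 and Map2k1 were lower, at -0.69 and at least 1.23-fold, and the ETS factor Elk3 was at -0.61. Without the third neuron sample Map2k1 was not called (limma adjusted p = 0.0510). Srf rose from 8.13 ± 0.10 (SD, n = 5) to 9.16 ± 0.05 (n = 3), a difference of 1.03 (limma adjusted p = 2.91e-06), Ets2 rose by 0.82, and Erf, an ETS repressor that ERK inactivates, by 0.81.

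Of 16 other immediate early genes tested, 8 rose and 5 fell. Sgk1, a kinase induced by growth factors and steroids, rose from 10.65 ± 0.08 (SD, n = 5) to 12.71 ± 0.01 (n = 3), a difference of 2.06 (limma adjusted p = 5.88e-09). The neurotrophin gene Bdnf rose by 2.05 and Zfp36l1, which promotes decay of early mRNAs, by 1.27. Plk2 (-1.23), Klf2 (-0.89) and Myc (-0.79) fell most. Of 13 tested genes of the JNK and p38 kinases, their upstream kinases and their scaffolds, 7 rose and 5 fell. Dusp8 and Dusp10 act on JNK and p38 themselves. The JNK scaffold Mapk8ip2 was at least 5.24-fold higher in neurons, and the JNK gene Mapk8 and its upstream kinase gene Map3k12 rose by 1.08 and 0.99. The p38 kinase gene Mapk12 (-1.45) and the genes of kinases that activate p38, Map2k6 (-1.52) and Map2k3 (-0.71), fell. Of the other tested p38 genes, Mapk11 was lower, at -0.56, and Mapk14 was not called, at 0.16.

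**Figure D4:**
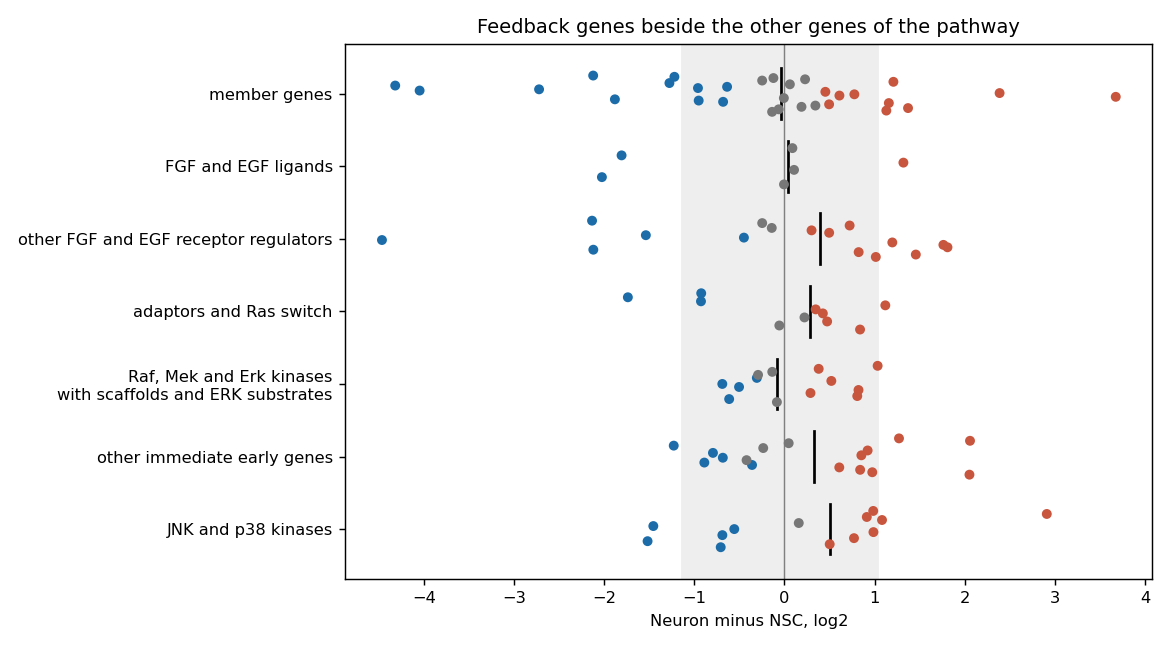
Difference between neurons and NSCs (log2) of every tested gene among the 30 chosen genes (top row) and in the 6 pathway lists; each point is a gene, red higher, blue lower, grey not called, and the black line is the median of the list. The grey band spans the 10th to the 90th percentile of all tested genes; the chosen genes reach from -4.32 to 3.68.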

How the data were processed

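Per the file headers, the authors deposited an average bead signal for each probe, an intensity on a linear scale, with a detection score, a fraction; 1 minus that score served here as detection p. Log2 values were deposited by the authors too. They match quantile-normalized log2 signals to within 5.00e-09, and the submitters' processing notes list limma with no version. No source used here names the scanner software. The number of arrays limits the precision.

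Signals were corrected for background with neqc (limma 3.58.1, R 4.3.3; offset 16), quantile normalized over 8 arrays and put on the log2 scale, so differences are relative to other probes and shrunk for dim genes. The fit by lmFit and eBayes, with group as its term, took the 10499 of 25697 probes whose detection p was under 0.01 on 3 or more arrays. Benjamini-Hochberg adjustment ran over all of these, with a threshold of 0.05. Each gene is read from its tested probe of highest mean. The labels do not say that replicates came from separate cultures: the p-values cover the spread among these samples, possibly technical. All arrays shared 1 chip, and position on it cannot be told apart from group.

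Where a group was nowhere above background, the bright group's mean was set against the dim group's mean of, on each array, the larger of 2 values, the probe's own and the lowest above background, and written as at least N-fold. The genes and lists were chosen with earlier results of these data known. All 30 tested members are named, and of each pathway list up to 3 called genes in each direction. Fgf2, Fgfr3, Mapk11, Mapk14, the marker genes and the promoters were picked after their values were seen. Mapk11 and Mapk14 were not followed one by one through the alternatives below. Symbols come from the platform table, and all 51 match the RefSeq table. Promoters are the 250 bases before each RefSeq start on GRCm38.p6. The alternatives were omitting background correction, an offset of 50, median scaling, cyclic loess, the authors' values, other filters, a trended robust variance, array weights, averaging a gene's probes, the replicate block and omission of single arrays. Omitting a neuron array while asking for detection on 2 arrays was chosen after seeing the data. The procedure was tested on simulated data.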

Additional observations from a re-analysis of the deposited data

Results flagged for a closer look

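In 3 of the 30 tested genes a single NSC sample lay apart from the other four by Dixon's criterion for 5 samples, where chance flags about 1 in 20 groups. Junb read 5.89 in the second NSC sample, with the nearest of the others at 6.29. Ier5l read 8.59 in the second NSC sample, with the nearest at 8.12. Etv4 read 9.93 in the third NSC sample, with the nearest at 9.76. The groups of 3 neuron samples were too small for this criterion.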

How the results depend on the processing

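Quantile normalization sets every array to 1 distribution. Under median scaling the median difference was 0.23 over all genes (0.06 with quantiles) and 0.17 over the chosen genes (-0.04), and 3297 of all genes were higher and 1693 lower (2624 and 2164). It called Dusp16 (0.39), Dusp19 (0.56), Jund (0.37) and Ier3ip1 (0.27) and turned the uncalled differences of Dusp1 (0.11), Dusp11 (0.062), Dusp7 (0.23) and Spred1 (0.075). Cyclic loess called Junb (-0.34). With the mean of a gene's probes Egfr turned to -0.20, Dusp11 turned to 0.29 and Dusp16 was called (0.23). Dusp7, near 0, turned to 0.00996 with array weights and to 0.0493 without the first neuron sample when detection was required on 2 arrays, and spanned -0.0429 to 0.0493 when each sample was left out. Detection on all 8 arrays left 20 chosen genes, with 5 higher and 7 lower, and 56 pathway genes, with 14 lower and a median of 0.48 against 0.19. With no filter the pathway median was 0.011. Under the other alternatives the counts of chosen genes called were within 1.5 times 10 higher and 11 lower. Leaving out each sample gave 8 to 10 higher and 11 to 12 lower.

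Among the 21 called genes, Egfr alone changed sign, and only Egfr with the mean of its probes and Etv1 lost the call in any alternative that tested them. Egr2 was not tested when a neuron sample was left out unless detection was required on 2 arrays. The labels do not say whether the replicate numbers pair the samples. Deviations of same-numbered samples correlated at -0.0169, 0.0138 and 0.0146, and those of differently numbered samples at -0.0362 to 0.0367. With so few samples this cannot decide whether they are paired. With the replicate block 9 chosen genes were higher and 11 lower, and Etv1 (0.43, limma adjusted p = 0.0826) was not called. Without background correction the differences of dim genes were smaller, but each of the 21 calls was kept. Among the named pathway genes the size then moved by over 1.5 times for Hspg2 (-2.94), Sdc4 (-1.07), Mapk8ip2 (1.63), Fgf17 (0.60), Fgf22 (-0.92), Fgfbp3 (0.91), Flrt2 (1.12), Map2k6 (-0.97), Mapk12 (-0.69), Rasa2 (0.73), Erf (0.47), Myc (-0.40), Klf2 (-0.39), Shc3 (-0.39), Mras (0.29), Elk3 (-0.27) and Map2k1 (-0.21). Cyclic loess ended the Mras call (0.36, limma adjusted p = 0.0541). Genes near background are limited by it: 10 of the 30 were not above background on all 8 arrays.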
